A study of Mus musculus with 24 samples.

Results

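CD8 and CD4 T cells from the marrow of untreated mice were compared with each other. The comparison took every library that the labels give as untreated, 3 of CD8 cells (pools 1, 2 and 3) and 3 of CD4 cells (pools 13, 14 and 15), which are 6 of the 24 libraries of the study. The mice were female CByB6F1 mice with immune bone marrow failure (BMF), a disease in which T cells destroy the blood-forming cells of the marrow, and were 2 to 5 months old. They received no drug, while the other 18 libraries came from BMF mice given cyclosporine (CSA), which blocks calcineurin, or ruxolitinib at low dose (RUX), which blocks the kinases JAK1 and JAK2, or both (RUX+CSA). The cells were sorted by flow cytometry and each pool held cells of 2 or 3 mice of 1 group. The labels used here do not say how the marrow failure was brought about, nor whether a CD8 pool and a CD4 pool came from the same mice, and there are no cells of healthy mice, so both groups are T cells of the disease. All gene positions are mm10.

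CD8 T cells recognise antigen on MHC class I and can kill the cells that show it, mainly by releasing perforin and granzymes from granules and by the death ligand FASL. CD4 T cells recognise antigen on MHC class II, and act largely through CD40 ligand and secreted cytokines, while a subset that expresses FOXP3 restrains other T cells. The split is set in the thymus by the factors RUNX3 (CD8) and ThPOK, the product of Zbtb7b (CD4). In immune marrow failure, killing by CD8 cells, interferon-gamma and tumour necrosis factor have all been tied to the loss of stem cells, and regulatory T cells to its restraint.

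The 6 libraries held 16912085 to 29974996 counted read pairs. Levels are given in CPM, the read pairs of a gene per 1000000 counted in the library, with totals scaled by TMM (trimmed mean of M values), and log2 fold changes are CD8 minus CD4. A gene is called higher or lower where the Benjamini-Hochberg adjusted p over all 13476 genes tested was below 0.05 in edgeR's quasi-likelihood test, fitted on all 24 libraries. All adjusted p-values are two-sided and from edgeR unless another tool is named, and they measure the spread between pools. In bulk RNA, fewer cells of a kind and less RNA per cell cannot be told apart. Log2 CPM across genes correlated at 0.973 to 0.987 among the CD8 libraries, 0.936 to 0.972 among the CD4 libraries and 0.916 to 0.968 between them (Pearson's r across genes, which are not independent replicates).

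The genes of the sort matched the labels in all 6 libraries. Cd8a stood at 1020 to 1060 CPM in the CD8 and 2.28 to 7.79 CPM in the CD4 libraries, and Cd4 at 0.403 to 0.621 against 1180 to 1610 CPM. Genes of T cells were well expressed in both: Cd3d, a chain of the T cell receptor complex, ran from 484 to 499 CPM in CD8 and from 432 to 500 CPM in CD4 libraries, and the summed CPM of 18 pan T cell markers was 8930 to 9770 against 9730 to 11500. Of those 18, 7 were lower in CD8 cells (Cd2, Cd247, Zap70, Cd5, Cd6, Trat1 and Cd28) and 1 higher (Themis). The B cell gene Ms4a1 was at 0 CPM in 5 of the 6 libraries. The 18 B and plasma cell markers summed to 118 to 137 CPM in CD8 and 179 to 202 CPM in CD4 libraries, and of 16 tested 1 was lower in CD8 cells (Xbp1).

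Markers of other marrow cells differed between the groups. Of 27 tested macrophage and monocyte markers, 22 were lower in CD8 libraries and 0 higher (median log2 -2.9), and their summed CPM was 586, 598 and 547 in CD8 pools 1, 2 and 3 and 990, 1740 and 2340 in CD4 pools 13, 14 and 15. Csf1r, the receptor of the macrophage growth factor, stood at 2.78, 7.01 and 2.97 against 21.2, 61.8 and 31.7 CPM, and 7 of 10 MHC class II genes were lower in CD8 libraries (summed CPM 111 to 183 against 458 to 1230). Neutrophil markers varied within each group instead: their sum was 569, 22.8 and 1640 CPM in CD8 and 1780, 102 and 9790 CPM in CD4 pools, and 1 of 24 (Mmp9) was called. NK cell markers summed to 945 to 1230 CPM in CD8 and 234 to 366 CPM in CD4 libraries, but the NK-defining receptor Ncr1 stayed at or below 0.434 CPM in all 6. That list also holds genes of cytotoxic T cells given below (Prf1, Gzma, Eomes and Klrk1), so its sum does not measure NK cells. With the mean log2 CPM of the macrophage markers as a term of the fit, 129 genes were called in place of 2324, 48 higher and 81 lower. That term itself differs between the cell types, which hold 57.1% of its variance over the 24 libraries. The 8 groups of the fit hold 85.1% of it, so the macrophage RNA and the cell type largely cannot be told apart. A covariate that joined neutrophil, erythroid, B cell and macrophage markers left 1766 genes called, 1487 of them shared with the 2324. Of the 1766, 699 were higher and 1067 lower. The cell types hold 30.5% of that covariate's variance over the 24 libraries, and the 8 groups 75.1%. The part of the macrophage RNA in the calls was not otherwise tested. Calls under the macrophage term are given beside the gene groups as "with the macrophage term".

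**Figure D1:**
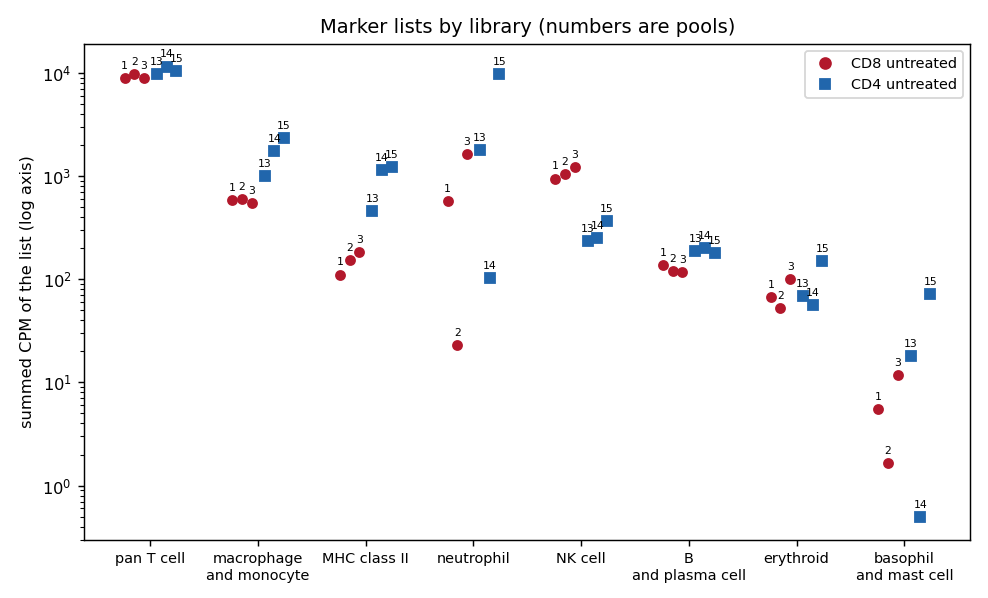
Summed CPM (log axis) of marker lists in each of the 6 untreated libraries, with the pool number above each point (circles CD8, squares CD4). Macrophage and MHC class II sums lie higher in all 3 CD4 pools (990 to 2340 and 458 to 1230 CPM) than in any CD8 pool, while neutrophil sums are lowest in pools 2 (22.8 CPM) and 14 (102 CPM).

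Of 13476 genes, 17.2% were called: 7.2% higher and 10% lower in CD8 cells. Counts of list members called are to be read against these shares. Among the 2324 called genes, 273 were over 2-fold higher and 747 over 2-fold lower, and 111 and 427 passed 4-fold. The CD8 and CD4 libraries did not overlap for 2211 of the called genes, and for 35% of all genes tested. The fit of the 6 untreated libraries alone called 1518 genes (534 higher and 984 lower), of which 1400 were shared. Without CD4 pool 14 it was 1506, and without CD8 pool 2 and CD4 pool 14 together, the libraries with the least neutrophil RNA, 1099. The median log2 fold change over all genes tested was 0.01.

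**Figure D2:**
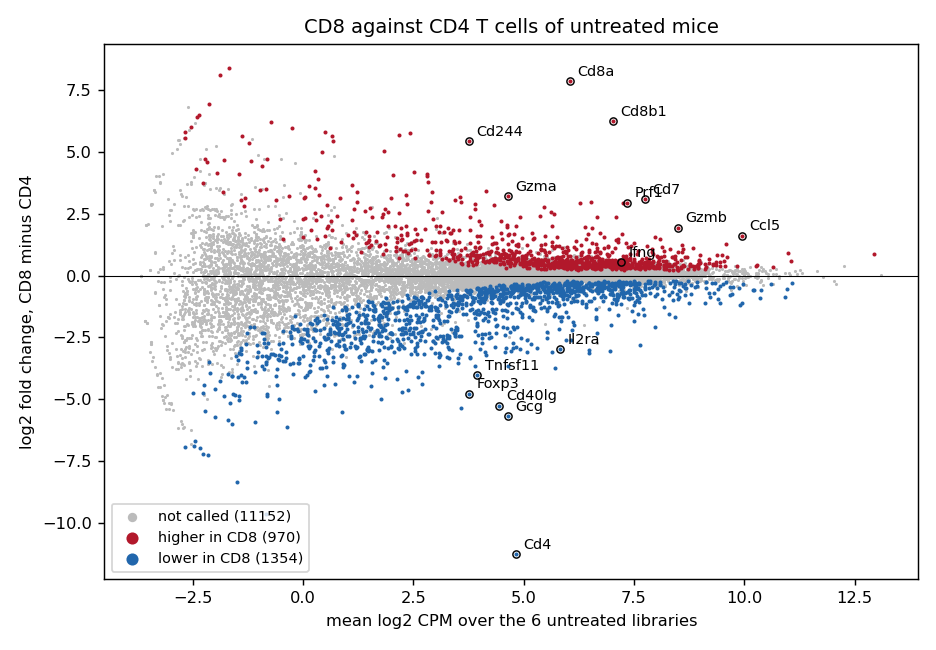
Log2 fold change (CD8 minus CD4) of each of 13476 tested genes against its mean log2 CPM over the 6 untreated libraries. Red points are the 970 genes called higher and blue points the 1354 called lower in CD8 cells, and grey points were not called. The sort genes Cd8a, Cd8b1 and Cd4 mark the extremes among well expressed genes.

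Perforin and the granzymes A and B were higher in CD8 cells, and their transcripts were also counted in every CD4 library. Of 23 tested genes of cytotoxic granules 6 were higher in CD8 cells (Prf1, Gzma, Gzmb, Nkg7, Ctsw and Lyst), which is 26.1%, against 7.2% of all genes. Lower were 2 (Srgn and Stx11), or 8.7%, against 10% of all genes. The other 15 were not called, and the median log2 fold change was 0.26. Stx11 lost its call without CD8 pool 2 or CD4 pool 15 (adjusted p up to 0.0853). Prf1, which encodes the pore-forming protein perforin (chromosome 10, 61297836 to 61304263), stood at 387, 348 and 669 CPM in CD8 pools 1, 2 and 3 and at 49.6, 48.6 and 84.2 CPM in CD4 pools 13, 14 and 15. The lowest CD8 library was thus well above the highest CD4 library (log2 2.95, SE 0.29, adjusted p = 1.69e-06). Granzyme B (Gzmb, chromosome 14, 56258858 to 56262260), a protease that triggers death of the target cell, measured 762, 788 and 585 CPM against 183, 226 and 151 CPM (log2 1.93, SE 0.32, adjusted p = 0.000377). Granzyme A (Gzma) was at 94.6, 128 and 38 CPM against 16.7, 5.36 and 5.84 CPM, apart but with a wide spread in both groups (log2 3.21, SE 0.65, adjusted p = 0.00251). Its call was lost with the covariate of neutrophil, erythroid, B cell and macrophage markers (log2 2.57, adjusted p = 0.0568). It was also lost without CD8 pool 2 and CD4 pool 14 together (log2 2.51, adjusted p = 0.0587).

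Nkg7, a protein of the granule membrane, was the most abundant per length of the granule genes named here, with 3470 RPKM (CPM per kilobase of exon) in CD8 and 1830 RPKM in CD4 cells. Its difference was less than 2-fold but tight: 2860, 2960 and 2650 CPM against 1370, 1520 and 1580 CPM (log2 0.92, SE 0.10, adjusted p = 1.03e-06). Per length, Gzmb was at 503 RPKM in CD8 and 132 in CD4 cells, Gzmk at 278 and 181, and Prf1 at 228 and 29.6. Granzyme K (Gzmk), typical of memory-like cells, was not called: 235, 155 and 271 CPM against 197, 34.1 and 199 CPM, so that only CD4 pool 14 was low (log2 0.62, adjusted p = 0.364). Serglycin (Srgn), the proteoglycan that packs granules and is also made by myeloid cells, was lower in CD8 libraries at 370 to 401 against 671 to 963 CPM (log2 -1.10, SE 0.13, adjusted p = 3.64e-06). Granule genes higher with the macrophage term were 2, Prf1 (log2 2.67, adjusted p = 0.0392) and Nkg7 (log2 1.07, adjusted p = 0.00522), and 0 were lower. For Gzmb the log2 fold change was 1.51 under that term (adjusted p = 0.48), and for Gzma 1.61 (adjusted p = 0.773).

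The 250 bases before the start sites of Prf1 and Gzmb, granule genes that were both higher in CD8 cells, are shown because RUNX3, a factor of CD8 cells, was higher in these libraries too. They are read from RefSeq promoters of build GRCm38.p6, 5′ to 3′ on the strand of the gene. Capitals mark the core of RUNX sites, TGTGGT or its reverse ACCACA.

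Prf1 promoter, chr10:61297586-61297835, plus strand: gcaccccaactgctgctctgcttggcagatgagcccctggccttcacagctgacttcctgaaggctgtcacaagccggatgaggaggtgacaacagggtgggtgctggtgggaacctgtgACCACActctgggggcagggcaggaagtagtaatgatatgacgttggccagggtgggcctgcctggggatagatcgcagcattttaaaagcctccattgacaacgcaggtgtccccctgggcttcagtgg

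Gzmb promoter, chr14:56262335-56262584, minus strand: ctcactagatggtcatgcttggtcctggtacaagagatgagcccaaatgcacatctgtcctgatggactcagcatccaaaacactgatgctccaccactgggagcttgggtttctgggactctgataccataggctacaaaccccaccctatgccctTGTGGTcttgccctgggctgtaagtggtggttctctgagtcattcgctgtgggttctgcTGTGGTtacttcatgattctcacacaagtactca

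Prf1 had 1 such match, 130 bases before the start, and Gzmb had 2, at 93 and 34 bases. The promoters of Fasl and Cd8a, genes also higher in CD8 cells, were searched the same way. They held 0 RUNX cores and are not printed. Distances are from the RefSeq start, which for Gzmb lies upstream of the gene position given above (to 56262260). The bases between are not shown. A match describes letters only. The core occurred in 14% of all 32851 promoters of this length, in 12.9% of the 970 promoters of genes higher in CD8 cells and in 14.3% of the 1326 promoters of genes lower in them, with genes of several starts counted once per start. Those promoters belong to 750 of the genes called higher and 1008 of those called lower. The other called genes had no promoter entry under their symbol. The T-box core GGTGTG, read on both strands, was in 16.3% of all promoters, 14.5% of those higher and 18.9% of those lower. In the 12929 promoters of all tested genes, the RUNX core was in 11.6% and the T-box core in 15.9%.

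Death ligands differed in both directions. Fasl (chromosome 1, 161780692 to 161788495), the ligand of the death receptor FAS, was at 228, 276 and 232 CPM in CD8 and 97.4, 111 and 126 CPM in CD4 pools (log2 1.14, SE 0.19, adjusted p = 0.000341). Tnf and Lta, which encode tumour necrosis factor and lymphotoxin alpha, went the other way. Tnf stood at 7.01, 7.87 and 6.66 against 18.8, 21.4 and 23.1 CPM (log2 -1.55, SE 0.30, adjusted p = 0.000979) and Lta at 3.87, 4.54 and 2.75 against 22.9, 25.2 and 24.6 CPM (log2 -2.71, SE 0.31, adjusted p = 3.33e-06). Neither group overlapped the other for any of the 3 genes. In the list of 14 death ligands and receptors, 2 were higher (Fasl and the receptor Tnfrsf1a) and 2 lower (median log2 -0.05). Each count is 14.3% of the list, against 7.2% higher and 10% lower among all genes. The ligand Tnfsf10 (log2 -0.27) and the receptor Fas (log2 0.08) were not called. Tnfrsf1a lost its call without CD8 pool 3 or CD4 pool 14 (adjusted p up to 0.0931). Fasl was still called with the macrophage term (log2 1.69, adjusted p = 0.0282), while Tnf (log2 -0.70, adjusted p = 0.826) and Lta (log2 -1.76, adjusted p = 0.117) were not.

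Interferon-gamma transcripts did not separate the cell types. Ifng (chromosome 10, 118441047 to 118445892) measured 152, 155 and 242 CPM in CD8 and 94.5, 113 and 173 CPM in CD4 pools, and the groups overlapped (log2 0.53, SE 0.35, adjusted p = 0.317). Tbx21, which encodes the T-bet factor that drives Ifng, was at 290, 286 and 209 against 275, 237 and 190 CPM (log2 0.16, adjusted p = 0.532). Both genes were thus well expressed in both cell types, with no difference beyond the spread of the libraries.

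Receptors of the NK lineage were the functional list with the largest share of members higher in CD8 cells: 12 of 29 were higher, 5 lower and 12 not called, with a median log2 of 1.76. Among receptors of the C-type lectin family, Klrc1 (NKG2A, an inhibitory chain that pairs with CD94) was at 382, 505 and 380 CPM in CD8 and 57.8, 53.6 and 56.6 CPM in CD4 pools (log2 2.92, SE 0.50, adjusted p = 0.000558). Klrk1 (NKG2D, which sees stress ligands) was at 178 to 298 against 33 to 51.4 CPM (log2 2.39, adjusted p = 0.00204), and Klrd1, the CD94 chain itself, at 167 to 214 against 59.4 to 101 CPM (log2 1.19, adjusted p = 0.03). The call of Klrd1 was lost without any 1 of 5 libraries, with adjusted p up to 0.101, and kept only without CD4 pool 15.

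Cd160 (chromosome 3, 96798763 to 96829351), a receptor of cytotoxic cells, showed one of the tightest differences: 247, 299 and 235 CPM against 33.9, 27.8 and 36.9 CPM (log2 2.99, SE 0.19, adjusted p = 1.14e-09). The signalling-lymphocyte receptor Cd244 was at 66.3, 138 and 75.9 CPM against 1.02, 2.57 and 3 CPM. Cd7, which cytotoxic lymphocytes carry on their surface, had 554, 714 and 686 CPM against 74.6, 47.8 and 107 CPM (log2 3.09, SE 0.28, adjusted p = 6.3e-07). For Cd244 even the lowest CD8 library was far above the highest CD4 library. Cd160, Cd244 and Cd7 kept their calls under all 16 alternatives, the macrophage term included.

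The 5 members of the NK list that were lower in CD8 cells included 3 that myeloid cells use as well. Tyrobp, Fcer1g and Fcgr3, an adapter pair and an Fc receptor, stood at 2.9 to 5.37, 6.41 to 8.52 and 5.8 to 8.5 CPM in CD8 and at 9.93 to 39.4, 19.1 to 53.7 and 18.5 to 64.1 CPM in CD4 libraries. None of them was called with the macrophage term, under which their fold changes turned to 0.01, 0.24 and 0.50 on the log2 scale (adjusted p = 0.999, 0.972 and 0.934). The others were the lectin-type receptors Klrb1f and Klra2 (log2 -1.15 and -2.24), and without CD8 pool 1 the lower members were 3. With that term, 2 members of the whole list were higher and 0 lower. Genes of the Klra and Klrc families are near copies, so reads may be split between members, and their single values are uncertain.

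A pair of genes picked after their values were seen was also higher in CD8 cells. Itgax, the CD11c chain of dendritic cells, stood at 48.6, 28.3 and 22 CPM in CD8 and 3.43, 0.543 and 1.68 CPM in CD4 pools (log2 4.10, SE 1.11, adjusted p = 0.0167). Zbtb16, which encodes the PLZF factor of innate-like T cells, was at 0.806, 0.23 and 2.97 CPM against 0 CPM in all 3 CD4 pools (adjusted p = 0.00137). Neither was called with the macrophage term, and Zbtb16 was not called with the 6 untreated libraries alone. Of 10 dendritic cell markers 3 were higher (Itgax, Xcr1 and Irf8) and 3 lower, while MHC class II was lower, so those antigen-presenting cell genes went both ways.

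**Figure D3:**
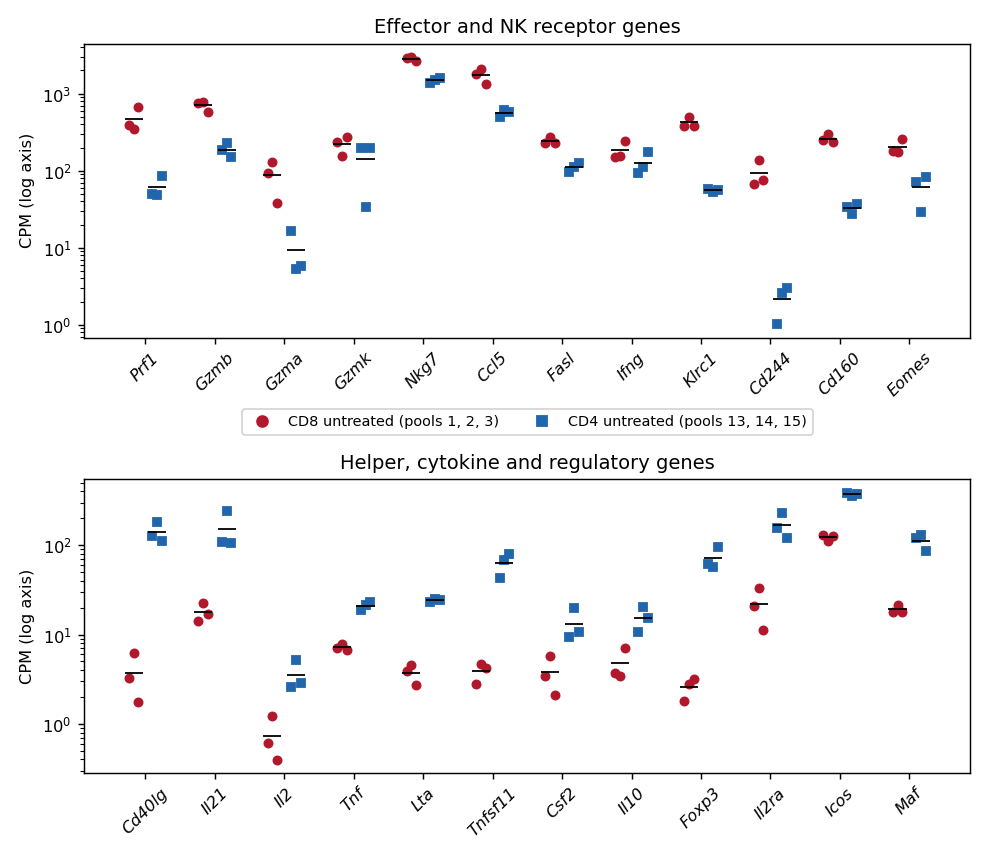
CPM (log axis) of 24 genes in each library, with circles for CD8 pools 1, 2 and 3, squares for CD4 pools 13, 14 and 15 and a black line at each group's mean. In the upper panel Gzmk (34.1 to 271 CPM) and Ifng (94.5 to 242 CPM) overlap between the cell types and the other genes do not. In the lower panel all 12 genes are higher in every CD4 pool than in any CD8 pool.

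Chemokine genes differed in both directions. Ccl5 (chromosome 11, 83525779 to 83530518), a chemokine stored in granules of effector cells, had 1800, 2070 and 1330 CPM in CD8 and 503, 611 and 585 CPM in CD4 pools (log2 1.61, SE 0.21, adjusted p = 2.3e-05). Ccl4 was just inside the threshold, at 329, 314 and 567 against 133, 259 and 297 CPM (log2 0.81, adjusted p = 0.0499), and lost its call without CD8 pool 1 or 3 or CD4 pool 13 or 14 (adjusted p up to 0.3). Ccl3 was not called (log2 0.90, adjusted p = 0.105). Of 12 chemokines 2 were higher (16.7%, against 7.2% of all genes) and 3 lower (25%, against 10%), namely Ccl1, Ccl6 and Cxcl10. Ccl1, a ligand of CCR8, was at 1.29 to 1.61 CPM in CD8 and 16.7, 21.6 and 37.8 CPM in CD4 pools (log2 -4.11, SE 0.57, adjusted p = 5.21e-05). Ccl6, a chemokine of myeloid cells, overlapped between the groups, at 5.72, 22.7 and 5.46 CPM in CD8 and 20.2, 147 and 22 CPM in CD4 pools. Without CD4 pool 14 its log2 was -0.93 (adjusted p = 0.445). It was also not called without CD8 pool 1 or 3, or with the 6 untreated libraries alone (adjusted p = 0.216). Cxcl10, an interferon-induced chemokine that attracts effector T cells, was at 2.94, 4.25 and 4.57 against 10.2, 14 and 24.3 CPM (log2 -2.04, SE 0.49, adjusted p = 0.00673). Without CD4 pool 13 the lower chemokines were 5, and the macrophage term left 0 called.

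Among lineage factors, Zbtb7b (ThPOK, chromosome 3, 89377646 to 89393203) was at 13, 18.6 and 10.5 CPM in CD8 and 94.4, 113 and 79.3 CPM in CD4 pools (log2 -2.78, SE 0.27, adjusted p = 8.77e-07). Its counterpart Runx3 (chromosome 4, 135120645 to 135177990) differed by less than 2-fold, with 211, 251 and 228 CPM in CD8 and 124, 122 and 126 CPM in CD4 pools (log2 0.89, SE 0.14, adjusted p = 0.000123). Both genes separated the libraries with no overlap, Zbtb7b by the wider margin. Runx1 (log2 -0.67) and Gata3 (log2 -0.83, SE 0.15, adjusted p = 0.00039), a factor of CD4 cells, were lower in CD8 cells. Crtam, a receptor of cytotoxic T cells that Runx3-bearing cells express, was at 47.4 to 54 against 4.92 to 18.6 CPM (log2 2.21, adjusted p = 0.00168). Of 21 coreceptor and lineage genes 7 were higher (33.3%, against 7.2% of all genes) and 7 lower (33.3%, against 10%). These counts include the sort genes Cd8a and Cd8b1 (higher) and Cd4 (lower), whose difference the sort itself set. With the macrophage term 3 were higher: Cd8a, Cd8b1 and Runx3 (log2 1.26, adjusted p = 0.0206). The lower ones were then 5, Cd4 and Zbtb7b (log2 -2.19, adjusted p = 0.025) among them.

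In the list of effector and memory factors 7 of 29 were higher and 6 lower. Eomes, a T-box factor of cytotoxic and memory cells, was at 182, 174 and 257 CPM in CD8 and 72, 28.9 and 82.1 CPM in CD4 pools (log2 1.74, SE 0.30, adjusted p = 0.000539). Irf8 (log2 1.17), Ikzf3 (log2 0.94) and Nr4a2 (log2 2.36) were higher too. The call of Nr4a2 was lost without CD8 pool 3 or CD4 pool 14 (adjusted p up to 0.0587). Tox, a factor of chronically stimulated CD8 cells, was at 783, 884 and 1010 CPM against 449, 512 and 550 CPM (log2 0.83, adjusted p = 0.0083). Maf (chromosome 8, 115703253 to 115706894), which drives Il10 and Il21 in helper cells, had the smallest adjusted p of the lower factors in this list. It was at 18, 21.6 and 18.1 CPM against 121, 129 and 87.1 CPM (log2 -2.54, SE 0.19, adjusted p = 1.53e-08). Bhlhe40, a factor of cytokine production, was at 466 to 506 against 827 to 1030 CPM (log2 -0.93, SE 0.13, adjusted p = 5.63e-05). Without CD8 pool 1 the lower factors were 3. Under the macrophage term Runx3 was higher and Maf lower, 1 gene each way, and Eomes was not called (log2 0.72, adjusted p = 0.802).

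Cytokine genes that were called were all lower in CD8 cells: of 21 tested T cell cytokines 15 were lower, 0 higher and 6 not called, with a median log2 of -1.76. Il21 (chromosome 3, 37222759 to 37232636), a helper cytokine for B cells and CD8 cells, measured 14.2, 22.6 and 17 CPM in CD8 and 109, 242 and 106 CPM in CD4 pools (log2 -3.09, SE 0.86, adjusted p = 0.0199). Tnfsf11, the osteoclast factor RANKL, was at 2.78, 4.65 and 4.26 against 43, 69 and 78.8 CPM (log2 -4.04, SE 0.57, adjusted p = 9.04e-05). Ebi3, a subunit of interleukins 27 and 35, was at 0.524, 0.746 and 1.55 against 17.2, 27.3 and 30.1 CPM (log2 -4.71, SE 0.46, adjusted p = 6.83e-07).

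Growth factors for myeloid cells belonged to the same side. Csf2, which encodes GM-CSF, was at 3.43, 5.8 and 2.09 CPM in CD8 and 9.27, 19.7 and 10.6 CPM in CD4 pools (log2 -1.81, adjusted p = 0.0137), and Csf1, which encodes M-CSF, at 102 to 152 against 214 to 369 CPM (log2 -1.18, adjusted p = 0.0466). Il10, an anti-inflammatory cytokine, had 3.71, 3.45 and 7.1 CPM against 10.8, 20.1 and 15.5 CPM (log2 -1.70, adjusted p = 0.00629). Il2 was low in both, at 0.399 to 1.21 against 2.61 to 5.14 CPM (log2 -2.28, adjusted p = 0.00696). In all of these the CD8 and CD4 libraries did not overlap, and CD4 pool 14 was the highest for Il21, Csf2, Csf1, Il10 and Il2. The call of Il21 was lost without CD4 pool 14 and without any 1 of the CD8 pools (adjusted p up to 0.0819). The macrophage RNA was higher in these same CD4 libraries, and with the macrophage term 1 cytokine gene was called lower, Ebi3 (log2 -3.25, adjusted p = 0.0204).

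The CD4 cells also held the surface ligands of helper cells. Cd40lg (chromosome X, 57212143 to 57224042), the ligand that licenses B cells and dendritic cells, was at 3.27, 6.2 and 1.77 CPM in CD8 and 126, 183 and 112 CPM in CD4 pools. Of 22 costimulatory receptors and ligands of the tumour necrosis factor family, 14 were lower in CD8 cells, 6 higher and 2 not called (median log2 -1.04). Icos, a costimulator of helper and regulatory cells, was at 130, 111 and 126 against 387, 356 and 372 CPM (log2 -1.60, SE 0.13, adjusted p = 2.52e-08), and Tnfrsf4 (OX40) at 35.2, 56 and 40.9 against 260, 456 and 389 CPM (log2 -3.07, SE 0.49, adjusted p = 0.000341). On the CD8 side stood Tnfrsf9 (4-1BB), at 363, 267 and 734 against 115, 158 and 189 CPM (log2 1.56, adjusted p = 0.00894), and Cd27, at 311 to 377 against 157 to 190 CPM (log2 0.95, SE 0.12, adjusted p = 1.24e-05). Tnfrsf9 rested on CD8 pool 3: without it the adjusted p was 0.076. The higher members were 3 without CD8 pool 3 or CD4 pool 14. Under the macrophage term 1 member was higher and 3 lower, Cd40lg (log2 -4.22, adjusted p = 0.011) and Icos (log2 -1.78, adjusted p = 0.000416) among the latter.

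Of 26 genes of regulatory T cells 17 were lower in CD8 cells (65.4%, against 10% of all genes) and 7 not called, with a median log2 of -1.67. Higher were 2, Tnfrsf9 and Entpd1 (7.69%, against 7.2% of all genes). Foxp3 (chromosome X, 7579676 to 7595243), the factor that defines these cells, was at 1.81, 2.81 and 3.19 CPM in CD8 and 61.2, 57.5 and 96.2 CPM in CD4 pools. Il2ra (CD25, chromosome 2, 11642792 to 11693194), the high-affinity interleukin 2 receptor chain, was at 20.8, 33.4 and 11.1 against 155, 232 and 121 CPM (log2 -2.97, SE 0.38, adjusted p = 2.85e-05). Capg, an actin-capping protein of effector regulatory cells, was at 93.3 to 101 against 284 to 384 CPM (log2 -1.83, SE 0.14, adjusted p = 1.11e-08). Lrrc32, which anchors latent TGF-beta on activated regulatory cells, was at 0.282 to 1.42 against 9.9 to 15.5 CPM (log2 -3.96, adjusted p = 3.1e-05).

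Ctla4, an inhibitory receptor, was lower in CD8 cells by less than those genes, at 75.7, 80.4 and 108 against 148, 225 and 197 CPM (log2 -1.11, adjusted p = 0.0144), and its call was lost without CD4 pool 14 or CD8 pool 1 (adjusted p up to 0.0605). Ikzf2 (Helios) was expressed in both, at 41.6 to 93 against 58.3 to 111 CPM, and not called (log2 -0.42, adjusted p = 0.674), and Tigit likewise (log2 0.24, adjusted p = 0.482). The higher members of the list were 0 without CD8 pool 3 and 1 without CD8 pool 2, CD4 pool 14 or CD4 pool 15. The macrophage term left 4 members lower and 0 higher: Foxp3 (log2 -4.61, adjusted p = 2.61e-05), Capg (log2 -1.30, adjusted p = 0.0057), Ebi3 and Icos. Il2ra then had a log2 of -1.96 (adjusted p = 0.193).

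The promoters of Il2ra and Il21 are shown as counterparts of Prf1 and Gzmb, since both genes were lower in CD8 cells and are known targets of calcineurin and NFAT signalling. Capitals mark T-box cores (GGTGTG or its reverse CACACC) and NFAT cores (GGAAAA or its reverse TTTTCC).

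Il2ra promoter, chr2:11642542-11642791, plus strand: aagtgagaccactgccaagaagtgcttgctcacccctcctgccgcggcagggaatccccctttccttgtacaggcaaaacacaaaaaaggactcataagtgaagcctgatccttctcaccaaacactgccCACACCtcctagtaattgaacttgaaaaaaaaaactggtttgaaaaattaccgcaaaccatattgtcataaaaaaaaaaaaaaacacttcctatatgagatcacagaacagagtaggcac

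Il21 promoter, chr3:37232637-37232886, minus strand: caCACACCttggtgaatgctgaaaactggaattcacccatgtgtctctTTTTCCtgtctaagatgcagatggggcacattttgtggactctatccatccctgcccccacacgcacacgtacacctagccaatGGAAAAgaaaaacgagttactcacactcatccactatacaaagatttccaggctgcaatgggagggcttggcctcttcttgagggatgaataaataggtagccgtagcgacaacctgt

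Il2ra had 1 T-box core, 120 bases before the start. Il21 had 1 T-box core at 248 bases and 2 NFAT cores, at 202 and 118 bases. Neither held the RUNX core in this window, and nor did Fasl and Cd8a. Fasl, higher in CD8 cells, held 1 T-box core and 1 NFAT core. The NFAT core was in 20.4% of all promoters, in 18.8% of those of genes higher and 17.7% of those of genes lower in CD8 cells.

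Follicular helper genes, which mark the CD4 cells that help B cells, were lower in CD8 cells for 15 of 23 members, with 0 higher and a median log2 of -1.16. Besides Il21, Icos, Maf and Cd40lg these included Btla (log2 -1.16, SE 0.12, adjusted p = 7.99e-07), the homing receptors S1pr2 and Gpr183 (log2 -0.76 and -1.68), and Sostdc1, at 2.78, 3.39 and 4.08 CPM in CD8 and 25.7, 41.5 and 52.3 CPM in CD4 pools (log2 -3.54, SE 0.85, adjusted p = 0.00844). The factor that defines these cells, Bcl6, was low in both at 6.37 to 8.78 against 8.94 to 14.4 CPM and not called (log2 -0.49, adjusted p = 0.183), and Cxcr5 was at 10 to 13 against 15.2 to 25.2 CPM (log2 -0.88, adjusted p = 0.0218). Cxcr5 lost its call without CD8 pool 1 or 2 or CD4 pool 13 or 15 (adjusted p up to 0.0821). The macrophage term left 5 members lower and 0 higher.

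Of the helper subsets, T helper 1 genes were lower in CD8 cells for 5 of 15 (Il2, Tnf, Il12rb2, Cxcr3 and Bhlhe40), T helper 2 genes for 6 of 11 and T helper 17 genes for 5 of 10, with 0 higher in each list. Il1rl1 (ST2), the receptor of interleukin 33, was at 12.5, 9.02 and 6.92 CPM in CD8 and 54.2, 53.3 and 34.4 CPM in CD4 pools (log2 -2.32, SE 0.30, adjusted p = 1.85e-05) and kept its call with the macrophage term. Il13, an effector cytokine of T helper 2 cells, did not pass 0.724 CPM in any of the 6 libraries, where 3 read pairs are worth 0.1 to 0.177 CPM. The members of the T helper 17 list that were lower included surface and membrane genes such as Tmem176b, at 0.887 to 2.64 against 20 to 54 CPM (log2 -4.37, SE 0.50, adjusted p = 5.7e-06), and Tmem176a beside it on chromosome 6, both of which myeloid cells express as well. The T helper 1 count was 3 without CD8 pool 3 or CD4 pool 14, and the T helper 17 count was 2 without CD8 pool 3, 3 without CD8 pool 2 or CD4 pool 13, and 2 with the 6 untreated libraries alone. The 3 lists had 0, 2 and 2 members lower under the macrophage term.

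Inhibitory receptors differed in both directions: 7 of 21 were higher in CD8 cells and 7 lower (median log2 0.08). Havcr2 (TIM-3) was at 195, 164 and 338 CPM in CD8 and 74.3, 80.9 and 121 CPM in CD4 pools (log2 1.34, adjusted p = 0.00455), and Lag3 at 241, 279 and 357 against 78.1, 113 and 158 CPM (log2 1.33, adjusted p = 0.0259). Cd38, an ectoenzyme of activated cells, was at 182 to 245 against 76.1 to 88.7 CPM (log2 1.42, SE 0.21, adjusted p = 9.05e-05). Cd5, a brake on receptor signalling, was at 135, 146 and 113 against 319, 360 and 332 CPM (log2 -1.36, SE 0.13, adjusted p = 3.05e-07). Pdcd1, which encodes PD-1, was high in both, at 860 to 1280 against 596 to 905 CPM, and overlapping (log2 0.38, adjusted p = 0.434). The call of Lag3 was lost without CD8 pool 2 or 3 or CD4 pool 13 or 14 (adjusted p up to 0.103). The higher members were 4 without CD8 pool 2 or 3, and the lower ones 4 without CD8 pool 1 or CD4 pool 14. Members called under the macrophage term were Cd244, Cd160 and Cd38 (higher) and Cd5 (lower).

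Of 34 genes of signalling from the T cell receptor 13 were higher in CD8 cells, 5 lower and 16 not called (median log2 0.20). Tec, a kinase that passes on the signal, had the largest fold change of the higher members, at 30.9, 31.5 and 38.2 CPM in CD8 and 10.7, 12.3 and 11.3 CPM in CD4 pools (log2 1.55, SE 0.20, adjusted p = 1.57e-05). Cblb, a ubiquitin ligase that sets the threshold of activation (chromosome 16, 52031549 to 52208046), was at 352, 364 and 563 CPM in CD8 and 169, 201 and 197 CPM in CD4 pools (log2 1.17, SE 0.14, adjusted p = 4.6e-06). Ubash3b, a phosphatase of the pathway, was at 275 to 448 against 135 to 170 CPM (log2 1.18, SE 0.16, adjusted p = 3.3e-05), and the adapter Sh2d2a at 1100 to 1440 against 438 to 599 CPM (log2 1.29, SE 0.16, adjusted p = 8.2e-06). The kinases Lck and Fyn were not called. Cd247, the zeta chain of the receptor, was lower in CD8 cells with almost no spread, at 296, 291 and 306 against 462, 466 and 465 CPM (log2 -0.64, SE 0.08, adjusted p = 5.06e-06). The higher members were 7 without CD4 pool 15 or with the 6 untreated libraries alone, and 8 without CD4 pool 14 or any 1 of the CD8 pools. With the macrophage term 1 member was higher (Cblb) and 3 lower (Cd247, Bcl10 and Trat1).

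Downstream of the calcium signal, of the subunits of calcineurin, the target of CSA, Ppp3cb was higher in CD8 cells (123 to 145 against 90.6 to 107 CPM, log2 0.48, SE 0.09, adjusted p = 0.000837), and Ppp3ca, Ppp3cc and Ppp3r1 were not called. Egr2 and Egr3, which calcium signalling induces, were lower in CD8 cells (log2 -0.96 and -2.17), as was the calcium channel Orai1, at 59.3 to 67.1 against 106 to 148 CPM (log2 -1.04, SE 0.16, adjusted p = 0.000106). Egr2 lost its call without CD8 pool 1 or 2 or CD4 pool 14 or 15 (adjusted p up to 0.103). In all, 2 of 20 calcineurin and NFAT genes were higher and 3 lower (25% called, against 17.2% of all genes). Of 25 immediate early genes 3 were higher (12%, against 7.2% of all genes) and 4 lower (16%, against 10%). Myc was among the higher ones, at 143 to 155 against 64.5 to 71.9 CPM (log2 1.12, SE 0.12, adjusted p = 1.69e-06). The higher ones were 1 without CD8 pool 3, and the lower ones 2 without CD8 pool 1 or CD4 pool 14. With the macrophage term 0 calcineurin and NFAT genes were called, and of the immediate early genes 2 were higher and 0 lower.

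Cytokine receptors were lower in CD8 cells for 15 of 33 members and higher for 4 (median log2 -0.70). Chains of 1 receptor moved apart: of the interleukin 2 receptor, Il2ra and Il2rg were lower (Il2rg at 820 to 1050 against 1370 to 1620 CPM, log2 -0.59, adjusted p = 0.00174) and Il2rb was higher at 2400, 2490 and 2980 against 1920, 1800 and 1600 CPM (log2 0.57, SE 0.14, adjusted p = 0.00583). Il7r, the receptor of naive and memory cells, was at 32.2 to 116 against 127 to 212 CPM and not called (log2 -1.28, adjusted p = 0.0744). Il1r2, a decoy receptor of regulatory and myeloid cells, was at 4.77 to 11.8 against 57.4, 65.4 and 172 CPM (log2 -3.67, SE 0.53, adjusted p = 0.000111). Without CD4 pool 14 the higher receptors were 2, and with the macrophage term 0 were higher and 3 lower.

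The kinases that RUX inhibits differed by less than 2-fold. Jak1 was at 1440 to 1480 CPM in CD8 and 992 to 1170 CPM in CD4 pools (log2 0.42, SE 0.10, adjusted p = 0.00398) and Jak2 at 223 to 248 against 332 to 392 CPM (log2 -0.61, SE 0.10, adjusted p = 0.000186). Genes that STAT5 is known to induce differed in both directions. Socs2, a feedback inhibitor, was lower at 4.8, 5.05 and 1.64 against 32.8, 58.8 and 25 CPM (log2 -3.35, SE 0.53, adjusted p = 0.000241), as was Cish, another, at 96.3, 152 and 50.8 against 186, 342 and 137 CPM (log2 -1.16, adjusted p = 0.0492). Pim2, a survival kinase, was higher at 243, 421 and 159 against 134, 138 and 90 CPM (log2 1.19, SE 0.26, adjusted p = 0.00332), and was not called with the 6 untreated libraries alone (adjusted p = 0.0911). The groups overlap for Cish, whose call was lost without CD8 pool 1, CD8 pool 3 or CD4 pool 14 (adjusted p up to 0.286). Of 26 JAK, STAT and SOCS genes 3 were higher (11.5%, against 7.2% of all genes) and 6 lower (23.1%, against 10%). With the macrophage term 0 were called.

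Homing receptors were lower in CD8 cells for 10 of 25 members (40%, against 10% of all genes) and higher for 2 (8%, against 7.2%). The median log2 was -0.76. Cx3cr1, the receptor of effector cells in blood (chromosome 9, 120048683 to 120068296), was higher at 69.6, 55.2 and 87.7 against 16.4, 8.94 and 15.4 CPM (log2 2.39, SE 0.29, adjusted p = 1.23e-05). Cxcr3, which answers interferon-induced chemokines, was lower at 314, 300 and 178 against 521, 560 and 445 CPM (log2 -0.95, adjusted p = 0.0159), a call lost without CD8 pool 3 or CD4 pool 14 (adjusted p up to 0.0802). Cxcr6, of tissue-resident and effector cells, was at 1360 to 1690 against 1090 to 1640 CPM and not called (log2 0.18, adjusted p = 0.578). Ccr7, the lymph node homing receptor of naive cells, was at 6.17 to 9.47 against 13.4 to 18.5 CPM (log2 -1.10, adjusted p = 0.0776) and not called.

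Naive and memory genes as a list were higher for 5 and lower for 8 of 26. The lower ones were 5 without CD8 pool 1 or 3 and 4 without CD4 pool 15, and with the macrophage term 0 members were higher and 1 lower. Tcf7, the factor of memory stem-like cells, was at 122, 155 and 99.6 against 295, 192 and 216 CPM (log2 -0.90, adjusted p = 0.0385), a call lost without CD8 pool 1 or 3 or CD4 pool 13 or 15 (adjusted p up to 0.143), and Slamf6, of the same cells, at 128 to 145 against 239 to 329 CPM (log2 -1.05, SE 0.15, adjusted p = 4.32e-05). Of the integrins and adhesion genes 4 of 25 were higher and 9 lower, with 2 higher without CD8 pool 1, CD4 pool 14 or CD4 pool 15. Itgae (CD103), which binds epithelium, was at 3.06 to 4.65 against 19, 22.5 and 44.5 CPM (log2 -2.98, SE 0.47, adjusted p = 0.000147), while Vcam1, a molecule of marrow macrophages and stroma that was at 8.74 to 15.7 against 56.2, 134 and 57.3 CPM, had a log2 of -0.09 (adjusted p = 0.985) with the macrophage term. That term left 0 homing receptors and, of the integrins, 0 higher and 2 lower.

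Of 38 interferon-gamma response genes 1 was higher (Irf8), 11 were lower and 26 not called (median log2 -0.32). Of 42 type I interferon genes 2 were higher (Mx1 and Sp100) and 10 lower (median log2 -0.42). The shares higher were 2.63% and 4.76%, against 7.2% of all genes, and the shares lower 28.9% and 23.8%, against 10%. Ifitm2, a membrane protein that blocks virus entry, was at 3.51, 3.96 and 5.1 CPM in CD8 and 37, 64.5 and 60 CPM in CD4 pools (log2 -3.68, SE 0.25, adjusted p = 1.76e-09) and kept its call with the macrophage term (log2 -2.46, adjusted p = 0.000263). Slfn5 was at 9.32 to 14.7 against 47.3 to 49.4 CPM (log2 -2.10, SE 0.26, adjusted p = 1.17e-05), and the GTPase Iigp1 at 19.1 to 36.7 against 111, 125 and 249 CPM (log2 -2.60, adjusted p = 0.00255). With the macrophage term 0 interferon-gamma genes and 1 type I gene were lower. The interferon-gamma genes lower in CD8 cells were 7 without CD8 pool 1 or 2, 5 without CD8 pool 3 and 4 without CD4 pool 15. The type I genes lower were 6 without CD8 pool 1 or CD4 pool 15, and 0 were higher without CD8 pool 2 or CD4 pool 14.

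Survival genes that were called were mostly lower in CD8 cells. Bcl2l11, which encodes the death-promoting BIM, was at 126, 164 and 193 CPM in CD8 and 46.1, 63 and 40 CPM in CD4 pools (log2 1.69, SE 0.25, adjusted p = 8.59e-05). Bbc3, which encodes the death-promoting PUMA, was lower at 11.5 to 16.5 against 46.1, 84 and 51.6 CPM (log2 -2.10, SE 0.38, adjusted p = 0.000682), and so was the protective Bcl2l1 (BCL-XL), at 40.4 to 63.1 against 86.2 to 158 CPM (log2 -1.12, adjusted p = 0.00256). Of 20 genes of the BCL2 family and survival 1 was higher (5%, against 7.2% of all genes) and 7 lower (35%, against 10%). The lower ones were 4 without CD8 pool 2, CD4 pool 14 or CD4 pool 15, and 0 were called with the macrophage term.

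Most cell division genes were not called. Of 42 S phase genes 41 had a fold change above 0 (median log2 0.43) and 3 were called higher (7.14%, against 7.2% of all genes). Of 51 mitosis genes 49 were above 0 (median log2 0.38) and 1 was called (1.96%). Mki67, which marks dividing cells, was at 444, 361 and 366 CPM in CD8 and 401, 161 and 228 CPM in CD4 pools, so that CD4 pool 13 lay among the CD8 libraries (log2 0.57, SE 0.28, adjusted p = 0.181). The counts rested on single libraries: without CD4 pool 13 they were 12 and 7, and without CD8 pool 1 or CD4 pool 14 they were 1 and 0. With the macrophage term 0 genes of either list were called. Ribosomal protein genes (0 of 82 called) and the nuclear genes of the respiratory chain (1 of 79) barely differed between the cell types.

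Of 29 glycolysis and hypoxia genes 3 (10.3%, against 10% of all genes) were lower in CD8 cells, Hif1a among them at 557 to 745 against 1030 to 1140 CPM (log2 -0.76, SE 0.12, adjusted p = 0.000153). Of 29 genes of sterol and fatty acid synthesis 4 were higher, with Acaca, the first enzyme of fatty acid synthesis, at 34.6 to 36.5 against 17.6 to 22.1 CPM (log2 0.80, SE 0.17, adjusted p = 0.00257), and 1 was lower (17.2% called, as among all genes). Without CD4 pool 14 the higher ones were 2, and without CD4 pool 13 the lower glycolysis genes were 5. Among S100, annexin and galectin genes 6 of 21 were lower, such as Anxa5 at 105 to 131 against 194 to 208 CPM (log2 -0.76, SE 0.12, adjusted p = 0.00011). With the macrophage term Hif1a was still called lower (log2 -0.99, adjusted p = 0.0474), and 0 other genes of these 3 lists were.

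**Figure D4:**
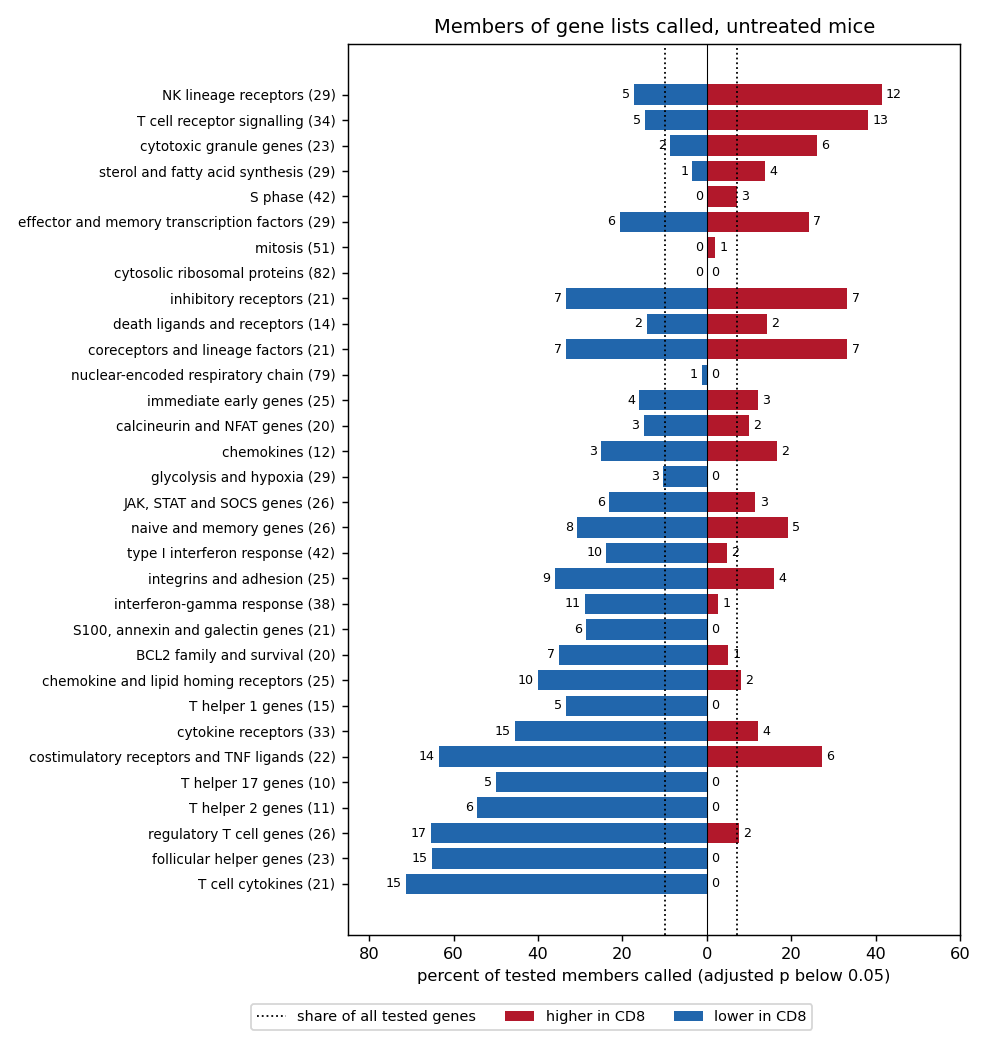
Percent of the tested members of each of 32 gene lists (number tested in brackets) called higher (red, right) or lower (blue, left) in CD8 cells, with the counts at the bar ends and dotted lines at the shares among all tested genes (7.2% and 10%). NK lineage receptors (12 of 29 higher) and T cell cytokines (15 of 21 lower) lie at the ends, and ribosomal protein genes have no bar.

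Beyond the lists, the largest differences among well expressed genes held some that are not usually named in T cells. Gcg (chromosome 2, 62474530 to 62483653), the gene of glucagon and related peptides, was at 2.26, 5.91 and 2.8 CPM in CD8 and 177, 202 and 175 CPM in CD4 pools (log2 -5.69, SE 1.02, adjusted p = 0.000979). Scin, an actin-severing protein, was at 0.967 to 3.24 against 35.8, 73.7 and 148 CPM (log2 -5.36, SE 1.03, adjusted p = 0.00169), and Igfbp7, a secreted binding protein, at 10.1, 28.5 and 10.3 against 121, 379 and 144 CPM (log2 -3.73, adjusted p = 0.0186). Igfbp7 was highest in pools 2 and 14 of their groups, and its call was lost without CD4 pool 14, CD8 pool 1 or CD8 pool 3 (adjusted p up to 0.0829). None of these 3 was called with the macrophage term, under which the log2 was -3.85 for Gcg (adjusted p = 0.394), -2.24 for Scin (adjusted p = 0.787) and -0.31 for Igfbp7 (adjusted p = 0.985).

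On the CD8 side, Adamts14, a secreted protease that processes collagen (chromosome 10, 61197112 to 61273438), had 48.2, 53.6 and 71.1 CPM against 5.54, 5.47 and 5.11 CPM (log2 3.42, SE 0.23, adjusted p = 1.48e-09). Prf1 (61297836 to 61304263) is near it on the same chromosome and on the other strand. Counting took no strand into account, but the annotated positions of these genes do not overlap. Setbp1 was at 23.8 to 40.9 against 3.29 to 4.84 CPM (log2 3.07, SE 0.26, adjusted p = 4.97e-08), Bend4 at 33.2 to 38.6 against 2.57 to 4.65 CPM (log2 3.17, SE 0.56, adjusted p = 0.000579), and Adgrg1 (GPR56), an adhesion receptor of cytotoxic cells, at 164, 209 and 308 against 20.2, 19 and 51.5 CPM (log2 2.92, SE 0.74, adjusted p = 0.0114). Adamts14 and Setbp1 kept their calls with the macrophage term, while Bend4 (log2 2.13, adjusted p = 0.573) and Adgrg1 (adjusted p = 0.301) lost theirs. Adgrg1 also lost its call without CD4 pool 14 (adjusted p = 0.0605).

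The same cell type difference was measured in the treated mice, whose libraries share none with the untreated ones. The spread of each gene was taken from all 24 libraries, so the treated and untreated calls are not independent. CD8 and CD4 cells differed at 26.3% of genes with CSA, 17.9% with RUX and 27.8% with RUX+CSA. Of the 970 genes higher in untreated CD8 cells, 408 (42.1%) were called higher in all 3 treated comparisons, 183 in none, and 851 had a fold change above 0 in all 3. Of the 1354 lower genes, 603 (44.5%) were called lower in all 3, 195 in none, and 1278 were below 0 in all 3. Called the other way in any treated comparison were 3 and 2 genes, among them Xcr1, the receptor of XCL1, with log2 0.82 in untreated, -0.41 with CSA, 0.61 with RUX and -0.62 with RUX+CSA.

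For Prf1 it was 2.95 without treatment and 3.14, 3.07 and 3.00 on the log2 scale with CSA, RUX and RUX+CSA. For Icos it was -1.60, then -1.61, -1.63 and -1.64. Gzmb varied more, with 1.93, then 1.47, 2.96 and 2.46. Eomes had 1.74 without treatment, 3.54 with CSA, 1.73 with RUX and 2.51 with RUX+CSA. Foxp3 had -4.78, then -3.07, -3.97 and -3.45, and Cd40lg -5.26, then -6.83, -5.34 and -7.58. Gzmk, not called in untreated mice, had 0.62, then 3.22 (adjusted p = 0.000167), 0.59 and 2.46 (adjusted p = 0.00101), and Ifng was not called in any of the 4.

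A direct test of the untreated difference against the mean of the 3 treated ones called 0% of the 13476 genes in edgeR. The unadjusted p was below 0.05 for 1101 genes, and the smallest adjusted p was 0.345. DESeq2 called 14 genes and limma's voom 0. The difference was -1.29 for Foxp3 (SE 0.30, adjusted p = 0.413), 0.96 for Xcr1 (SE 0.23, adjusted p = 0.462), -1.47 for Gzmk (SE 0.52, adjusted p = 0.558) and -0.12 for Prf1 (SE 0.32, adjusted p = 0.932), on the log2 scale. Cd68, a macrophage gene, had the smallest p: its log2 was -0.25 in untreated mice and 0.53, 1.23 and 1.63 with CSA, RUX and RUX+CSA (difference -1.38, SE 0.27, adjusted p = 0.345).

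**Figure D5:**
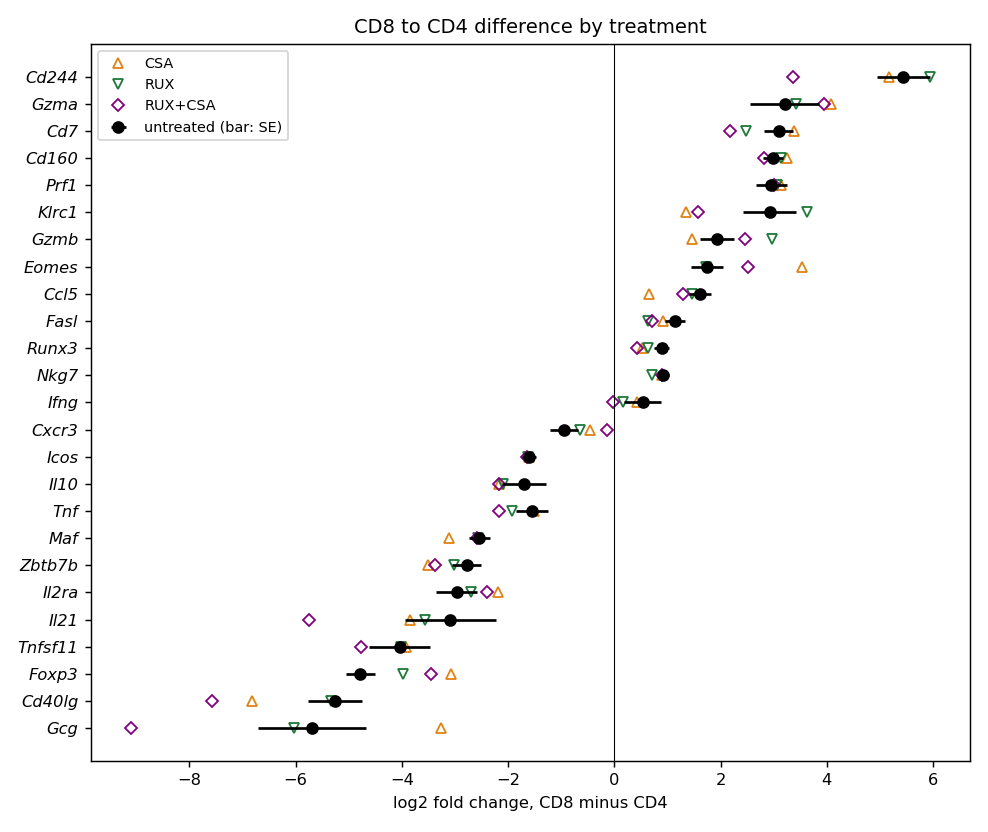
Log2 fold change (CD8 minus CD4) of 25 genes in untreated mice (black circles, bar 1 SE) and in mice given CSA, RUX or RUX+CSA (open symbols). Prf1 (2.95 to 3.14), Nkg7 and Icos lie close together over all 4, while Eomes, Gcg and Cd40lg spread more widely.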

How the data were processed

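The RNA-seq counts are those the authors deposited: read pairs per gene, counted over exons with featureCounts 2.0.3 with no strand option, per the file headers, after alignment to mm10 with STAR, per the submitters' processing notes. Libraries were made with the SMART-Seq mRNA LP kit (Takara), per the labels' protocols. Of 24421 genes, 13476 passed edgeR's filter on low counts. The fit used edgeR 4.0.16 (R 4.3.3) on all 24 libraries with a mean for each of the 8 groups, TMM scaling, the quasi-likelihood test and Benjamini-Hochberg adjustment, and each comparison is a contrast of 2 group means, or of 8 for the difference from the treated mice. Read pairs are not independent molecules, and 3 read pairs equal 0.12 to 0.177 CPM in the CD8 and 0.1 to 0.165 CPM in the CD4 libraries. Tested on simulated data for this contrast, with 13071 genes, the fit recovered 96 of 98 changes of log2 2 and 32 of 96 of log2 1, with 11 false calls.

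The members and the 45 gene lists (32 functional, 13 of markers) were chosen with earlier results of these data known, and the ribosomal list lost a kinase that matched only by name after its values were seen. Named genes are the 12 highest and 12 lowest by fold change among called genes whose log2 CPM averaged 3 or more and whose groups did not overlap, leaving out unnamed gene models and antigen receptor segments, up to 3 called members of each functional list each way with the smallest p, and a set named whatever its result. For the difference from the treated mice they are up to 8 called genes each way and that same set. Other list members given as examples were chosen after their values were seen. Alternatives were DESeq2 1.42.0, voom (limma 3.58.1), RLE scaling, other filters, other samples in the fit, each library left out, and a covariate of the markers of neutrophils, erythroid, B cells and macrophages. The macrophage term (its own mean over macrophage markers, fitted in all 24 libraries) and leaving out CD8 pool 2 and CD4 pool 14 together were chosen after seeing the data. Promoters are RefSeq entries of GRCm38.p6, searched on both strands. Some genes of that set are not reported here.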

Additional observations from a re-analysis of the deposited data

How the results depend on the processing

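Of 81 alternative values of the counts, 64 lay within 1.5 times the reported one. The 2324 genes called became 1518 (534 higher) with the 6 untreated libraries alone, 129 (48 higher and 81 lower) with the macrophage term, and 1099 (342 higher and 757 lower) without CD8 pool 2 and CD4 pool 14. With the covariate of neutrophil, erythroid, B cell and macrophage markers (the other-cell covariate) 1766 were called (699 higher and 1067 lower). Leaving out 1 library at a time gave 1506 (CD4 pool 14) to 2903 (CD4 pool 13) genes, 481 to 1258 higher. Without CD8 pool 1 it was 1559 and without CD8 pool 3 1595, with 630 and 565 higher, and without CD4 pool 15 610 were higher. The cause was not tested. For the difference from the treated mice, genes called were 14 with DESeq2, 1 without CD8 pools 6 (CSA) and 7 (RUX), 10 with the macrophage term and 0 to 1 leaving out 1 library.

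Of 153 named genes 144 were called, 109 kept the call without any 1 library, 124 with the covariate of all other-cell markers, 32 with the macrophage term and 30 under all 16 settings. Log2 fold changes that changed sign under the macrophage term were Fcer1g 0.242, Fcgr3 0.503, Tyrobp 0.011, Ccl6 1.088, Itga4 -0.269, Junb 0.1, Sp100 -0.026, Chaf1b -0.153, Ldhb 0.117, Dhcr7 -0.051, Fasn -0.104, Anxa4 0.011, Ndufv3 0.037, Tbx21 -0.196, Gzmk -1.36, Mki67 -0.672, Cish 0.352 and Socs1 0.332. Tbx21 had -0.101 with the other-cell covariate. The difference from the treated mice, with adjusted p above the threshold, changed sign for Il2 (0.191) and Il2ra (0.01) with the macrophage term, for Tbx21 with that term (-0.161), with the other-cell covariate (-0.034) and without the pair of pools (-0.046), and for Klrd1 without that pair (-0.079). Leaving out 1 library it ran from -1.013 to 0.131 for Gzma, -0.485 to 0.182 for Prf1, -0.093 to 0.163 for Tbx21, -0.17 to 0.214 for Klrd1, -0.075 to 0.809 for Il7r, -0.185 to 0.713 for Cish and -0.117 to 0.293 for Socs1.

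No paired analysis was possible because CD8 and CD4 pools share no numbers in the labels. With 3 libraries a group and no cells of healthy mice, macrophage RNA that differs between the cell types, and counts without strand, small differences, genes that macrophages share and overlapping or near-identical genes (granzymes, Klra, Klrc and Ifitm families) are the least certain. The self-test made few calls at log2 1, and genes near 3 read pairs are limited by depth. With 1 library left out of a group, its spread is taken from all groups.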
